A study of Mus musculus with 6 samples.

Results

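Runx2, Sp7, Alpl, Spp1, Sox9, Acan, Scx, Mkx, Tnmd and Postn mark cells of the bone, cartilage and tendon lineages. These 10 genes were taken by symbol from the 37991 Ensembl genes counted in a C2C12 series, to see whether muscle precursors short of Kap1 expressed genes of another mesenchymal fate. Each was found under 1 Ensembl identifier, and 9 of the 10 had enough counts to be tested.

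C2C12 is an established mouse myoblast line of C3H strain origin that fuses into myotubes when serum is lowered. KAP1, encoded by Trim28, is a scaffold protein that brings chromatin-modifying enzymes to transcription factors. Every culture had been transduced with a lentivirus (LV) for a short hairpin, aimed at Kap1 in the knockdown cells and at luciferase (sh-Luc) in the control cells. The MT groups, 1 knockdown and 1 control library, had spent 48 hours in medium with 2% horse serum, to which insulin, transferrin and selenium were added. The MB groups, 2 knockdown and 2 control libraries, were proliferating myoblasts in 10% fetal calf serum. The labels name 1 hairpin per target and do not say whether the replicates were separate cultures, so the p-values reflect the spread among these libraries alone, part of which may be technical. Polyadenylated RNA from the cytoplasm was sequenced.

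Bone, cartilage, tendon and muscle cells share mesenchymal ancestors, and a few transcription factors mark each branch. RUNX2 and then SP7 (osterix) direct osteoblast formation, SOX9 directs cartilage formation, and SCX (scleraxis) and MKX (mohawk) direct tendon formation. ALPL, SPP1, ACAN, TNMD and POSTN are enzymes and matrix or membrane proteins that the cells of these tissues make. C2C12 cells are known to turn towards bone-like cells when treated with bone morphogenetic proteins (BMPs), and the labels mention none here.

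Levels are given in CPM, counts scaled by the total count on genes in that library. The total ran from 36247530 to 49839994, so that 3 counts corresponded to 0.0602 to 0.0828 CPM. Trim28 itself had 122.3 CPM in MT knockdown cells, against 382.4 CPM in MT control cells. In MB it had 152.5 and 100.7 CPM in knockdown cells (replicates 1 and 2), against 587.3 and 417.4 CPM in control cells, so that every knockdown library lay below every control library. Of the myogenic genes, Myod1 ran from 3.49 to 232.5 CPM and Des from 307.1 to 1209.0 CPM over the 6 libraries, while Pax7 had at most 15 counts in any library. Summed over their marker lists, endothelial genes reached at most 3.17 CPM and haematopoietic genes at most 4.62 CPM.

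The second MB replicate stood apart from the first in both arms. The files of replicate 1 of both MB arms and of both MT libraries are marked in their names, those of replicate 2 are not, and the difference between replicates was alike in the knockdown and the control arm (Pearson r = 0.826 over the 16472 genes tested). The labels do not explain the mark. A fit without and a fit with a term for this mark, called the batch term here, were therefore compared. Without the term, edgeR's quasi-likelihood test with Benjamini-Hochberg adjustment called 0 genes in each of the 5 comparisons made. At an unadjusted p under 0.05 it had 454 genes for knockdown in MB, 1383 for knockdown in MT, 4174 for differentiation of control cells, 2512 for differentiation of knockdown cells and 825 for the difference between the knockdown effects. DESeq2 without the term called 50, 368, 2370, 843 and 168 genes in the same order. "Rose", "fell" and "passed" below refer to an adjusted p under 0.05 in edgeR with the batch term. The single MT libraries are assumed there to vary as the MB libraries do after the replicate difference is taken out. That fit left 1 residual degree of freedom, and the fit without the term left 2. The common biological coefficient of variation, edgeR's measure of spread between libraries, was 9.74% with the term and 32.9% without it. Log2 changes come from the fit with the term and are scaled by TMM, whereas CPM and ratios of CPM are not. In MT, leaving out that scaling put the median log2 change of all genes at 0.155, against 0.018 with it.

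**Figure D1:**
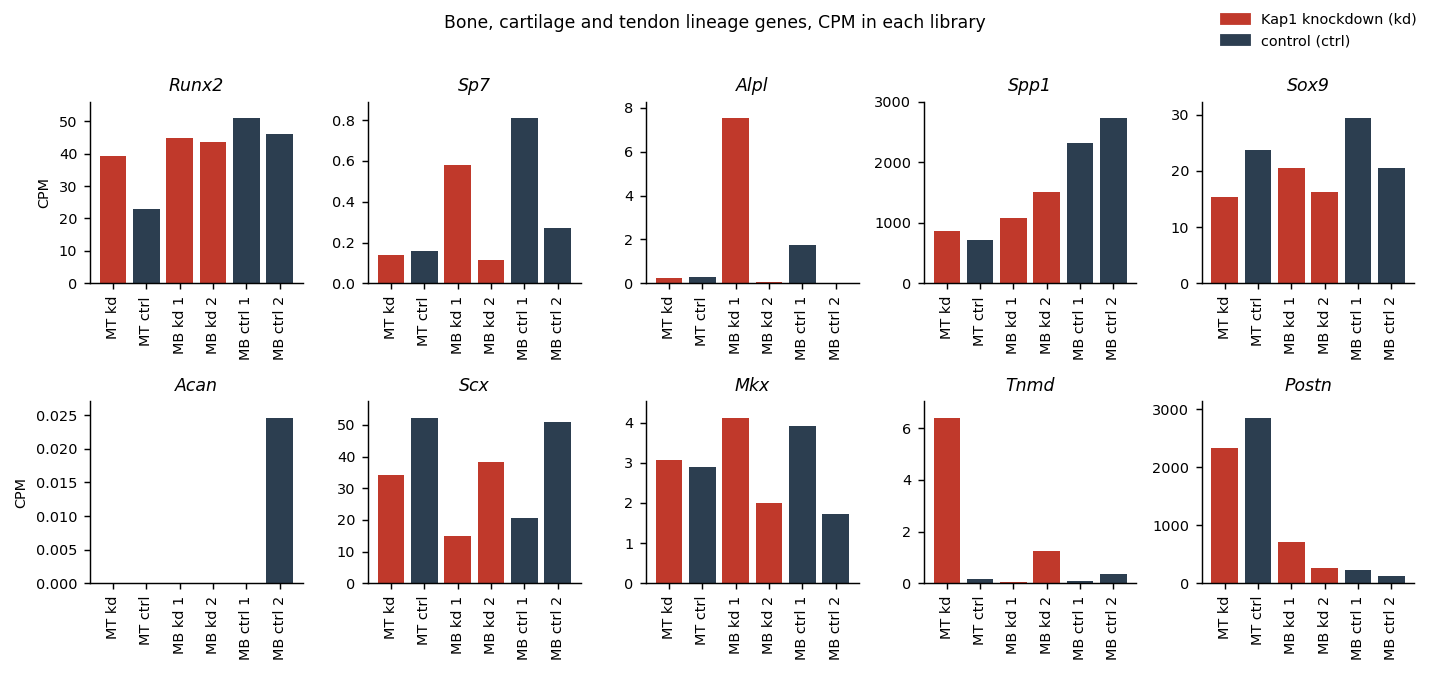
Level of each of the 10 genes in every library, in CPM on a linear axis that starts at 0 and has its own height per gene; red bars are Kap1 knockdown libraries and dark bars are control libraries. Tnmd stands at 6.4 CPM in the MT knockdown library and at 1.26 CPM or less in the others, while Spp1 is highest in the MB control libraries.

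Per kilobase of exon the levels of the 10 genes did not rank by lineage. Spp1 was the most abundant in each library, at 523 CPM per kb in MT knockdown cells, against 441 in MT control cells, and at 660 and 915 in MB knockdown cells, against 1404 and 1657 in MB control cells. Postn was second except in MB control replicate 2, where Scx stood above it, with 268 CPM per kb in MT knockdown cells, against 327 in MT control cells, and 81.3 and 29.8 in MB knockdown cells, against 26.5 and 13.4 in MB control cells. In the other libraries the transcription factors Scx, Runx2 and Sox9 came after Postn, and in MT knockdown cells Tnmd, at 4.73 CPM per kb, stood above Runx2 and Sox9. Scx ran from 7.42 to 26 CPM per kb, Runx2 from 2.58 to 5.76 and Sox9 from 3.7 to 7.11, and the ranges of Runx2 and Sox9 overlapped. Mkx stayed between 0.42 and 1 CPM per kb, Sp7 between 0.0337 and 0.239 and Alpl between 0 and 1.87. Acan had a single count in 1 of the 6 libraries, MB control replicate 2.

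The sequence just before the transcription start is shown for Spp1, Postn, Runx2 and Tnmd, the genes whose response to the knockdown differed between MT and MB. The windows are the 250 bases before a RefSeq start on GRCm38.p6, printed 5′ to 3′ on the strand of the gene: chr5:104434861-104435110 (+) for Spp1, chr3:54360857-54361106 (+) for Postn, chr17:44814628-44814877 (-) for Runx2 and chrX:133850758-133851007 (+) for Tnmd. Capitals mark the RUNX core letters TGTGGT or the TATA box letters TATAAA, searched on both strands, so that ACCACA and TTTATA are their reverse complements.
Spp1: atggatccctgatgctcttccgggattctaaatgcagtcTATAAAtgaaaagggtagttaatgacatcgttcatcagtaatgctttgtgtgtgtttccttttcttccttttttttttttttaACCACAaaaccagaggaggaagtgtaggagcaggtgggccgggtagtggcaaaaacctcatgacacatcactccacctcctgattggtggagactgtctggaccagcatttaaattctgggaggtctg
Postn: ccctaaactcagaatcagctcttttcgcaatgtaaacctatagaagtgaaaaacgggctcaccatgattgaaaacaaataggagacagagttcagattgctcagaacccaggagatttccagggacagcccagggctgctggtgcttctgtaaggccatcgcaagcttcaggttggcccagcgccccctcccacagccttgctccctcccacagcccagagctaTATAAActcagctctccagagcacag
Runx2: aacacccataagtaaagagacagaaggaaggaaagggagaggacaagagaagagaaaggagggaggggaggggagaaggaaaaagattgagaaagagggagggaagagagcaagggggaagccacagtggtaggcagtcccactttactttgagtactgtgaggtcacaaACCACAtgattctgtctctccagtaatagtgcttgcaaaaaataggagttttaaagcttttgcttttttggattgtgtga
Tnmd: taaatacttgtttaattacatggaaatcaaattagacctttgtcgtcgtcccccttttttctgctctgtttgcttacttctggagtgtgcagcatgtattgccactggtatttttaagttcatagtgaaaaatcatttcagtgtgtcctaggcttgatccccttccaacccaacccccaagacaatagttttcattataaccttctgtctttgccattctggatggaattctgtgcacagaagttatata
The Spp1 window held a RUNX core 128 bases before the start and a TATA box letter match at 211 bases. The Runx2 window held a RUNX core at 80 bases, the Postn window a TATAAA at 26 bases, and the Tnmd window neither. TGTGGT was present on either strand in 14% and TATAAA in 12.4% of 32851 such windows of all genes. RefSeq windows were found for 6 of the 10 genes, these 4 and also Alpl and Acan. Spp1 and Postn each have a second RefSeq start, not shown, whose window held neither motif. These matches describe letters and do not show binding.

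In MB, Postn and Alpl rose and Spp1 and Scx fell in knockdown cells. DESeq2 with the batch term called Postn and Spp1 but not Alpl and Scx. No direction for bone or tendon markers is drawn from so few calls. The knockdown and control libraries overlapped in both Alpl and Scx. With the batch term, 4 of the 9 tested genes passed, 2 higher and 2 lower, against 3.84% of the 16472 genes tested (2.5% higher and 1.34% lower). Sox9, Runx2, Sp7, Tnmd and Mkx did not pass. In 3 of the 9 genes, the knockdown and control libraries did not overlap, with Postn higher and Spp1 and Runx2 lower, against 26.5% of all genes tested. Of all genes, 15.6% were higher and 11% lower with no overlap. Knockdown over control had the same direction in both replicate pairs for 8 of the 9 genes, against 62.2% of all genes. Replicate 2 lay below replicate 1 in both arms for 6 of the 9 genes and above it for 3, against 40.8% and 35.8% of all genes.

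In MT, Tnmd and Runx2 were higher in knockdown cells, and Scx and Sox9 were lower. DESeq2 with the batch term called Tnmd and Scx but not Runx2 and Sox9. Again 4 of the 9 tested genes passed, 2 in each direction, against 20.3% of all genes tested (9.09% higher and 11.2% lower). Tnmd was the only gene of the 9 whose CPM differed at least 2-fold between the 2 MT libraries, against 17.1% of all genes. The knockdown effects themselves differed between MT and MB for 4 genes, Tnmd, Spp1 and Runx2 with a higher and Postn with a lower log2 change in MT, against 10.5% of all genes (3.82% higher and 6.63% lower). Scx was the only one of the 10 that passed in both MT and MB, where it was lower in knockdown cells both times. Without the batch term the MT log2 changes of the 9 genes were the same to 2 decimals, and their adjusted p ran from 0.533 to 0.994.

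The cells also differed in how far they expressed muscle genes. The summed level of 7 skeletal muscle markers was 95.8 CPM in MT knockdown cells, against 6036 CPM in MT control cells. All 7 markers were lower in MT knockdown cells, and 6 passed, with a median log2 change of -6.20. Of all genes tested, 9.09% passed as higher and 11.2% as lower in MT. In MB the sum was 10.5 and 62 CPM in knockdown cells, against 10.4 and 111 CPM in control cells, so that replicate 2 had the higher sum in both arms. The 5 smooth muscle markers, led by Acta2, summed to 5595 CPM in MT knockdown cells, against 5531 CPM in MT control cells, and to 5866 and 1999 CPM in MB knockdown cells, against 3071 and 1354 CPM in MB control cells. Acta2 made up most of each sum, and the 5 did not move as it did in MT, where Cnn1 and Tagln rose, Smtn fell and the median log2 change was 1.31. Tagln had 765.1 CPM in MT knockdown cells, against 280.3 CPM in MT control cells, and Cnn1 had 57.1 CPM, against 5.14 CPM. In MB, 3 of the 5 rose, against 2.5% of all genes, with a median log2 change of 0.65. Of the 5 fibroblast markers Thy1 had at most 4 counts in any library and Lum was at 0 counts in all 4 MB libraries. Summed, the fibroblast markers had 51.5 CPM in MT knockdown cells, against 47.1 CPM in MT control cells, and 65.9 and 20.4 CPM in MB knockdown cells, against 56.5 and 17.9 CPM in MB control cells. Most of that sum was Pdgfra, at 48.5 CPM in MT knockdown cells, against 38.7 CPM in MT control cells, whereas Pi16 had 2.54 CPM, against 6.62 CPM, and Dpt 0.469 CPM, against 1.5 CPM. Of the 3 fibroblast markers tested, 1, Pi16, fell in MT by edgeR and 0 by DESeq2 with the batch term. Of all genes, 11.2% fell by edgeR and 7.65% by DESeq2. The median log2 change of the fibroblast markers was -1.52. The part of these differences in the levels of the 10 genes was not tested, and in RNA from whole cultures fewer cells of a type and less RNA per cell cannot be told apart.

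**Figure D2:**
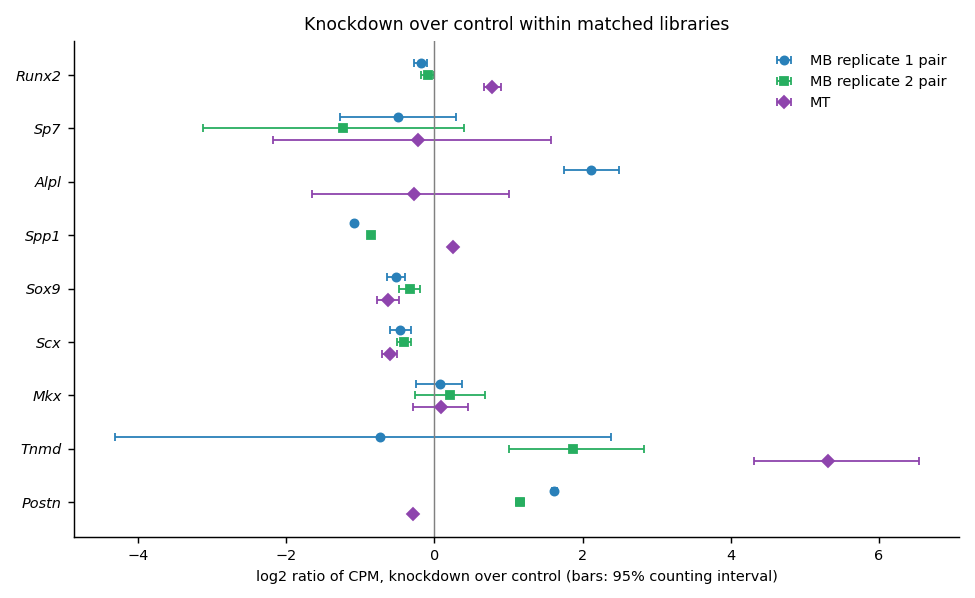
Log2 ratio of CPM, knockdown over control, within the MB replicate 1 pair, the MB replicate 2 pair and the MT pair, for the 9 genes tested; bars are 95% counting intervals, and 0 means equal levels. Alpl has no point for the replicate 2 pair, whose control library had 0 counts, and Tnmd lies farthest from 0 in MT, at a ratio of 39.9.

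Runx2, the factor needed for osteoblasts to form, was expressed in every library. It had 39.3 CPM in MT knockdown cells, against 22.8 CPM in MT control cells, a ratio of 1.72 (95% counting interval 1.59 to 1.86). MB knockdown cells had 44.8 and 43.5 CPM, against 50.9 and 46.1 CPM in MB control cells. The MT control library was thus the lowest of the 6, and in MB both knockdown libraries lay just below both control libraries. Runx2 rose in MT by a log2 change of 0.65 (SE 0.14, adjusted p = 0.00869, edgeR), whereas in MB the change was -0.17 (SE 0.10, adjusted p = 0.425). The MT effect exceeded the MB effect by 0.81 (SE 0.17, adjusted p = 0.0118, edgeR). DESeq2 with the batch term gave adjusted p = 0.103 in MT and 0.108 for the difference. Of the Runx2 exon bases, 5.87% are also covered by the antisense gene Runx2os1, which had at most 0.717 CPM. Whether counting used the strand is not stated.

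On differentiation, Runx2 fell in control cells, at 22.8 CPM in MT against 50.9 and 46.1 CPM in MB (log2 change -1.11, SE 0.13, adjusted p = 8.63e-05, edgeR). In knockdown cells the change was -0.29 (SE 0.13, adjusted p = 0.104), with 39.3 CPM in MT against 44.8 and 43.5 CPM in MB. The gene whose level followed Runx2 most closely over the 6 libraries was Pimreg (Pearson r = 0.9985 of log2 CPM plus 0.5), ahead of Dlgap5 (0.9978). This is a description over libraries that share groups and batches, and 1.9% of genes exceeded an r of 0.95 with Runx2.

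Sp7, which acts after RUNX2 in osteoblast formation, was close to the counting limit. It had 0.138 CPM (5 counts) in MT knockdown cells, against 0.161 CPM (8 counts) in MT control cells. In MB it had 0.579 and 0.114 CPM in knockdown cells, against 0.81 and 0.271 CPM in control cells, and the arms overlapped. Neither knockdown comparison passed, with ratios of 0.859 in MT (interval 0.221 to 2.98) and of 0.714 and 0.423 in the MB pairs. In both arms replicate 1 of MB had more than replicate 2.

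Alpl encodes tissue-nonspecific alkaline phosphatase, which degrades the mineralisation inhibitor pyrophosphate and serves as an early osteoblast marker. It had 7.52 CPM (351 counts) in MB knockdown replicate 1, against 1.74 CPM (73 counts) in MB control replicate 1. In the replicate 2 pair it had 2 counts in knockdown cells and 0 in control cells. The MT libraries had 0.248 CPM (9 counts) in knockdown and 0.301 CPM (15 counts) in control cells. Alpl was thus high in 1 library, lower in its partner and near 0 in the rest.

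The ratio of Alpl within the replicate 1 pair was 4.32 (95% counting interval 3.35 to 5.64). With the batch term Alpl rose in MB by a log2 change of 2.10 (SE 0.36, adjusted p = 0.0101, edgeR), a value that rests on that 1 pair. DESeq2 with the term gave adjusted p = 0.283, and without the term the change was -4.17 when MB knockdown replicate 1 was left out. In MT the change was -0.41 (SE 0.64, adjusted p = 0.703).

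Spp1 encodes osteopontin, a phosphoprotein of bone matrix that is also secreted by many other cells, and per kilobase it was the most abundant of the 10. It had 1087.3 and 1507.6 CPM in MB knockdown cells, against 2313.0 and 2731.2 CPM in MB control cells, and all knockdown libraries lay below all control libraries. The ratios within the pairs were 0.47 and 0.552. In MT it had 862.0 CPM in knockdown cells, against 726.1 CPM in control cells.

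Spp1 fell in MB with a log2 change of -1.0 (SE 0.11, adjusted p = 0.0012, edgeR), beside -0.99 in the fit without that term (unadjusted p = 0.0118, adjusted p = 1). Leaving out 1 MB library at a time without the batch term kept the change between -1.26 and -0.75. In MT it was 0.11 (SE 0.16, adjusted p = 0.667), and the MT effect differed from the MB effect by 1.11 (SE 0.19, adjusted p = 0.00491). On differentiation Spp1 fell in both arms, with a log2 change of -0.47 in knockdown cells (SE 0.15, adjusted p = 0.033) and of -1.59 in control cells (SE 0.15, adjusted p = 2.22e-05), by edgeR. The value in knockdown cells did not pass when counts were scaled by total gene counts.

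Sox9, the factor that starts cartilage formation, was lower in knockdown cells in every pair. It had 15.3 CPM in MT knockdown cells, against 23.7 CPM in MT control cells. MB knockdown cells had 20.6 and 16.3 CPM, against 29.4 and 20.5 CPM in MB control cells, so that the arms overlapped by the higher knockdown and the lower control library. The ratios were 0.646 in MT and 0.699 and 0.793 in the MB pairs.

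Sox9 fell in MT with a log2 change of -0.77 (SE 0.16, adjusted p = 0.0089, edgeR), with adjusted p = 0.0694 by DESeq2 with the batch term. In MB the change was -0.46 (SE 0.11, adjusted p = 0.0568). The MT and MB effects did not differ beyond the threshold (difference -0.31, SE 0.20, adjusted p = 0.381). Acan, the large proteoglycan that SOX9 activates in cartilage, was not tested, having 1 count in all 6 libraries together.

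Scx, the earliest factor of the tendon lineage, was also lower in knockdown cells in every pair. It had 34.3 CPM in MT knockdown cells, against 52.2 CPM in MT control cells. In MB it had 14.9 and 38.2 CPM in knockdown cells, against 20.5 and 50.9 CPM in control cells. The replicates differed more than the arms: replicate 2 exceeded replicate 1 by a ratio of 2.57 in knockdown and 2.48 in control cells, while knockdown over control was 0.727 and 0.751 in the pairs. Scx lies inside the gene Bop1 on the opposite strand, with no exon base in common.

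Scx fell in MT with a log2 change of -0.74 (SE 0.13, adjusted p = 0.00387, edgeR) and in MB with one of -0.47 (SE 0.10, adjusted p = 0.0266). In MB the DESeq2 test with the batch term gave adjusted p = 0.229, and without the term the change ran from -1.31 without MB knockdown replicate 2 to 0.36 without MB control replicate 2. The MT and MB effects did not differ beyond the threshold (difference -0.27, adjusted p = 0.347, edgeR).

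Mkx, which maintains the tendon collagen programme, stayed close to the control level in each pair. It had 3.06 CPM in MT knockdown cells, against 2.89 CPM in MT control cells. MB knockdown cells had 4.12 and 1.99 CPM, against 3.93 and 1.72 CPM in MB control cells. Knockdown over control was 1.06 in MT (95% counting interval 0.82 to 1.37) and 1.05 and 1.16 in the MB pairs, and neither comparison passed. The fitted log2 change in MT was -0.05, and 0.08 when counts were scaled by total gene counts.

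Tnmd encodes tenomodulin, a membrane glycoprotein of mature tendon cells that lies downstream of SCX in mouse tendon. It had 6.4 CPM (232 counts) in MT knockdown cells, against 0.161 CPM (8 counts) in MT control cells. In MB it had 0.0429 and 1.26 CPM (2 and 55 counts) in knockdown cells, against 0.0715 and 0.344 CPM (3 and 14 counts) in control cells. The MT knockdown library was far above the other 5, and in MB the arms overlapped.

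The MT ratio of Tnmd was 39.9 (95% counting interval 19.9 to 93.5). Tnmd rose in MT by a log2 change of 5.16 (SE 0.56, adjusted p = 0.000219, edgeR), with adjusted p = 0.000487 by DESeq2 with the batch term. The MB pairs gave ratios of 0.599 (interval 0.0501 to 5.23) and 3.66 (interval 2.01 to 7.12), and the MB change was 1.49 (SE 0.52, adjusted p = 0.174). The MT effect exceeded the MB effect by 3.67 (SE 0.83, adjusted p = 0.0216 by edgeR and 0.0856 by DESeq2, both with the batch term). Each MT arm is 1 library, so this difference has no replicate check in MT. Sh2d3c was the gene most like Tnmd over the 6 libraries (Pearson r = 0.9974), and 0.378% of genes exceeded an r of 0.95.

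Postn encodes periostin, a matricellular protein of periosteum, ligament and healing tissue. It had 2334.8 CPM in MT knockdown cells, against 2848.5 CPM in MT control cells. MB knockdown cells had 707.8 and 259.3 CPM, against 230.3 and 116.4 CPM in MB control cells. Both MB knockdown libraries lay above both control libraries, by ratios of 3.07 and 2.23 within the pairs, and the MT libraries stood above all 4 MB libraries.

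Postn rose in MB by a log2 change of 1.36 (SE 0.13, adjusted p = 0.000868, edgeR), and in MT the change was -0.42 (SE 0.18, adjusted p = 0.124). The effects differed by -1.78 (SE 0.22, adjusted p = 0.000975). When 1 MB library at a time was left out, with no batch term, the MB change ran from 0.57 without MB knockdown replicate 1 to 2.01 without MB control replicate 1. On differentiation Postn rose in both arms, by a log2 change of 1.75 in knockdown cells (adjusted p = 8.41e-05) and of 3.53 in control cells (adjusted p = 4.05e-07), by edgeR. Sh3gl1 was the gene most like Postn over the 6 libraries (Pearson r = 0.9964), and 2.45% of genes exceeded an r of 0.95.

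More of these genes, and of all genes, passed for differentiation than for the knockdown, though the MT libraries share the mark of MB replicate 1 and with the batch term are in effect compared with that replicate. In knockdown cells 7 of the 9 tested genes passed, against 33.1% of all genes (16.6% higher and 16.5% lower), with Tnmd, Postn and Scx higher and Alpl, Sp7, Sox9 and Spp1 lower. In control cells 6 of the 9 passed, against 44.9% of all genes (22.3% higher and 22.6% lower), with Postn and Scx higher and Alpl, Sp7, Spp1 and Runx2 lower. For Scx, MT over MB was 2.31 against replicate 1 and 0.898 against replicate 2 in knockdown cells, and 2.55 and 1.02 in control cells. Tnmd in control cells likewise had 2.24 times the MB level of replicate 1 (interval 0.539 to 13.1) and 0.466 times that of replicate 2 (interval 0.169 to 1.19). Tnmd in knockdown cells had 149 times the level of replicate 1 (interval 40.9 to 1.24e+03) and 5.08 times that of replicate 2, and rose with a log2 change of 6.11 (adjusted p = 8.18e-05, edgeR). Alpl fell with a log2 change of -4.99 in knockdown cells and -2.48 in control cells (adjusted p = 6.67e-05 and 0.00177, edgeR), values that follow replicate 1. Against MB replicate 2, Alpl in MT had 9 counts beside 2 in knockdown cells and 15 beside 0 in control cells. Sox9 fell in knockdown cells with a log2 change of -0.55 (adjusted p = 0.0212, edgeR), and the change in control cells was -0.24 (adjusted p = 0.212). Postn in MT was above both replicates, at ratios of 3.3 and 9 in knockdown cells and 12.4 and 24.5 in control cells.

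The wider lists of bone, cartilage and tendon genes each include their members among the 10. By edgeR with the batch term, each list held genes that moved both ways in MT. In MB the bone list did too, whereas the cartilage calls were all higher and the tendon calls all higher but 1. The counts of these lists stand beside 3.84% of all genes in MB (2.5% higher and 1.34% lower) and 20.3% in MT (9.09% higher and 11.2% lower). With the batch term, 6 of 26 tested bone genes passed in MB, 4 higher and 2 lower, and the list's median log2 change was 0.05, beside -0.00687 for all genes. In MT 1 bone gene passed as higher and 3 as lower, with a median of -0.16, beside 0.018 for all genes. DESeq2 with the term gave 3 higher and 2 lower bone genes in MB, and 0 higher and 3 lower in MT. Col1a1, the main collagen of bone, had 7163.1 CPM in MT knockdown cells, against 9167.1 CPM in MT control cells, and 5615.1 and 5914.5 CPM in MB knockdown cells, against 3294.0 and 3543.3 CPM in MB control cells. It rose in MB by a log2 change of 0.72 (adjusted p = 0.00571, edgeR) and fell in MT with a log2 change of -0.49 (adjusted p = 0.0471). Runx1, a relative of Runx2 found in blood and skeletal precursors, fell in MT with a log2 change of -0.98 (adjusted p = 0.000625, edgeR), where Runx2 rose. Of the 31 bone genes, 5 had at most 3 counts in every library: Ibsp, Mepe, Sost, Dlx5 and Dlx6.

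In the cartilage list, 3 of 18 tested genes rose in MB and 0 fell by edgeR (2 were lower at an unadjusted p under 0.05), and in MT 3 rose and 4 fell, with median log2 changes of 0.47 in MB and -0.20 in MT. The 3 that rose in MB by edgeR were the fibrillar collagen genes Col27a1, Col11a1 and Col11a2. DESeq2 with the batch term gave 3 higher and 0 lower cartilage genes in MB, and 2 higher and 4 lower in MT. Col27a1 had 51.4 CPM in MT knockdown cells, against 12.6 CPM in MT control cells, and 12.1 and 4.81 CPM in MB knockdown cells, against 2.6 and 0.959 CPM in MB control cells. It rose by a log2 change of 1.90 in MT (adjusted p = 7.72e-05) and of 2.23 in MB (adjusted p = 9.05e-05), by edgeR. Col11a1 rose by 1.44 in MT and 2.45 in MB (adjusted p = 0.00321 and 0.000376), while Fgfr3, a receptor of growth plate cartilage, fell in MT with a log2 change of -2.42 (adjusted p = 0.000546). Col2a1, the defining cartilage collagen, had at most 30 counts in any library, and 12 of the 34 cartilage genes, among them Acan, Comp, Matn1 and Col9a1, had at most 3 counts in every library.

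In the tendon list, 7 of 26 tested genes rose in MB and 1 fell, with a median log2 change of 0.39, and in MT 4 rose and 5 fell, with a median of 0.18. DESeq2 with the batch term gave 7 higher and 0 lower tendon genes in MB, and 5 higher and 4 lower in MT. Fmod, a collagen-binding proteoglycan of tendon, had 22.4 CPM in MT knockdown cells, against 13.5 CPM in MT control cells, and 22.0 and 3.96 CPM in MB knockdown cells, against 7.27 and 1.16 CPM in MB control cells. Fmod rose in MB by 1.63 (adjusted p = 0.000604, edgeR), and Col12a1 and Col5a2, collagens of the fibril surface and core, rose there by 0.73 and 0.71 (adjusted p = 0.00368 and 0.00809). The gene that fell in MB was Scx, which DESeq2 with the term did not call. Decorin (Dcn) and Col3a1 fell in MT with log2 changes of -1.27 and -1.05 (adjusted p = 0.000285 and 0.00156, edgeR), while Egr1, a factor that induces tendon collagens, rose by 0.79 (adjusted p = 0.0034).

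**Figure D3:**
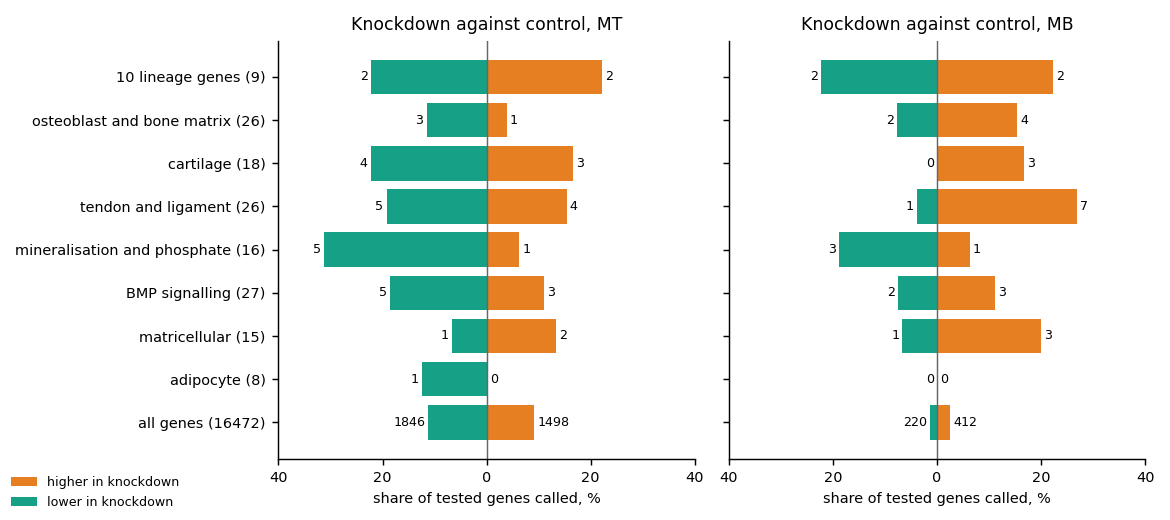
Share of the tested genes of each list that passed with the batch term, higher in knockdown to the right and lower to the left, in MT and in MB; numbers beside the bars are gene counts and numbers in brackets are genes tested. Of all 16472 genes, 1498 were higher and 1846 lower in MT, and 412 were higher and 220 lower in MB; the lists include genes among the 10.

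A mixed list of mineralisation and phosphate genes holds genes that handle pyrophosphate or phosphate and others that do not. Of its 16 tested genes, 1 rose and 3 fell in MB, and 1 rose and 5 fell in MT, against 3.84% and 20.3% of all genes. The median log2 change was -0.18 in MB and -0.37 in MT. DESeq2 with the batch term gave 0 higher and 2 lower in MB, and 1 higher and 3 lower in MT. The gene that rose in MB by edgeR was Alpl (adjusted p = 0.283 by DESeq2). Ank, which exports pyrophosphate, had 172.2 CPM in MT knockdown cells, against 197.5 CPM in MT control cells, and 216.2 and 182.4 CPM in MB knockdown cells, against 392.9 and 388.8 CPM in MB control cells. Ank fell in MB with a log2 change of -1.01 (adjusted p = 0.000814, edgeR). Enpp1, which makes pyrophosphate, fell with log2 changes of -0.93 in MT and -0.59 in MB (adjusted p = 0.000968 and 0.00779). Mgp, a matrix protein that inhibits mineral formation, fell with log2 changes of -1.08 in MT and -0.40 in MB (adjusted p = 0.000348 and 0.0483). Ank, Enpp1 and Mgp were the 3 genes that fell in MB, of which Mgp had adjusted p = 0.123 by DESeq2 with the term. In MB, Enpp1 had 19.7 and 35.4 CPM in knockdown cells, against 27.8 and 54.6 CPM in control cells. Mgp had 13 and 99.2 CPM there, against 16.4 and 131.9 CPM. The MB arms thus overlapped in Enpp1 and Mgp, and the replicates of Mgp differed more than its arms.

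Of the BMP pathway, 3 of 27 tested genes rose and 2 fell in MB, and 3 rose and 5 fell in MT, against 3.84% and 20.3% of all genes. DESeq2 with the batch term gave 1 higher and 1 lower in MB, and 3 higher and 4 lower in MT. The median log2 change was 0.12 in MB and -0.06 in MT. The ligand gene Bmp4 had 62.4 CPM in MT knockdown cells, against 30.4 CPM in MT control cells, and 55.1 and 15.8 CPM in MB knockdown cells, against 10.7 and 4.8 CPM in MB control cells. It rose by a log2 change of 0.90 in MT (adjusted p = 0.0218) and of 2.04 in MB (adjusted p = 0.00126), by edgeR. Grem1, a secreted BMP antagonist, had 10.0 CPM in MT knockdown cells, against 31.0 CPM in MT control cells, and 88.8 and 25.1 CPM in MB knockdown cells, against 420.7 and 170.4 CPM in MB control cells. It fell with log2 changes of -1.77 in MT (adjusted p = 0.000536) and -2.53 in MB (adjusted p = 7.92e-05), and another antagonist, Chrd, fell in MT with a log2 change of -2.70 (adjusted p = 0.000116). Smad6, an inhibitory SMAD that BMP signalling induces, rose by 1.19 in MT and 0.59 in MB (adjusted p = 0.00198 and 0.0307, edgeR), and DESeq2 with the term gave adjusted p = 0.282 in MB. The receptor gene Bmpr2 had 14.7 CPM in MT knockdown cells, against 24.8 CPM in MT control cells, and Tob1 had 42 CPM, against 65.9 CPM. The MT effect lay below the MB effect by a log2 difference of -0.67 for Bmpr2 and -1.10 for Tob1 (adjusted p = 0.0359 and 0.0024, edgeR). The Id genes and Hey1 of the list did not move together in MT. Id3 had 146.2 CPM in MT knockdown cells, against 75.8 CPM in MT control cells. Id1 had 43.5 CPM, against 45.9 CPM, Id2 17 CPM, against 16.1 CPM, and Hey1 3.95 CPM, against 7.97 CPM. Whether BMP signalling itself changed was not tested.

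**Figure D4:**
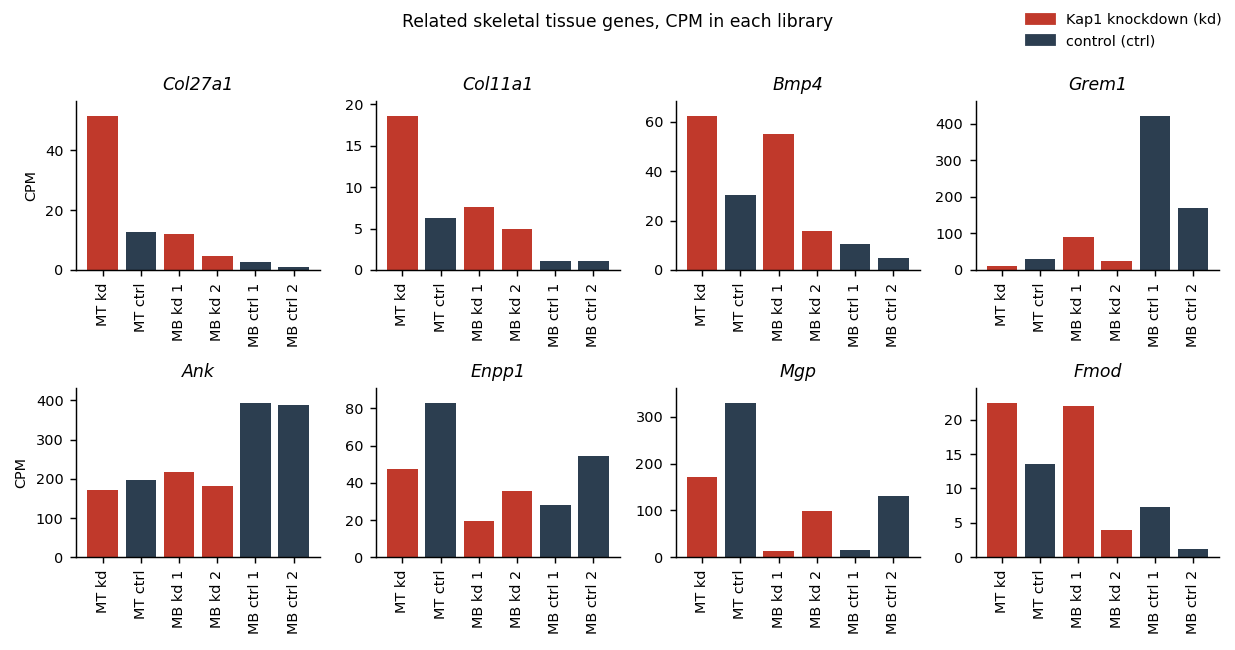
Level in every library of 8 genes from the bone, cartilage, tendon, mineralisation and BMP lists, in CPM on linear axes that start at 0; red bars are Kap1 knockdown and dark bars control libraries. In MB, Bmp4, Col27a1 and Col11a1 are higher in both knockdown libraries than in both control libraries, and Ank and Grem1 are lower.

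Of 15 tested matricellular genes, a list that holds Postn and Spp1, 3 rose and 1 fell in MB, against 3.84% of all genes, and DESeq2 with the batch term gave 5 higher and 1 lower. In MT 2 rose and 1 fell, a share near the 20.3% of all genes. The median log2 change was 0.46 in MB and -0.03 in MT. Ccn3, a secreted regulator of cell adhesion, had 349.2 CPM in MT knockdown cells, against 59.6 CPM in MT control cells, and 39.3 and 33.5 CPM in MB knockdown cells, against 18.7 and 9.54 CPM in MB control cells. Ccn3 rose by a log2 change of 2.41 in MT (adjusted p = 0.00575) and of 1.40 in MB (adjusted p = 0.0378), by edgeR.

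Adipocyte genes, which mark a further mesenchymal fate, were set beside these lists. Of 8 tested, 0 passed in MB by edgeR with the batch term (3 at an unadjusted p under 0.05), against 3.84% of all genes. DESeq2 with the term called 1 there, Lpl. In MT 0 rose and 1 fell, Cd36 (log2 change -5.09, adjusted p = 0.00026, edgeR), against 20.3% of all genes. The median log2 change of the list was 0.42 in MB and 0.66 in MT, and 5 of the 8 changes lay above 0 in each. Pparg, the main adipocyte factor, had 5.1 CPM in MT knockdown cells, against 3.03 CPM in MT control cells, and 17.8 and 6.59 CPM in MB knockdown cells, against 22.7 and 10.9 CPM in MB control cells. Of the 14 adipocyte genes 6 had at most 3 counts in every library, Adipoq and Plin1 among them.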

How the data were processed

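The authors deposited whole-number read counts per Ensembl gene for 6 libraries. TopHat2 2.0.11, HTSeq and the mm9 build are named in the submitters' processing notes; annotation release, counting mode and strand setting: not given in the sources used here. Summary entries that do not stand for a gene were dropped. Genes without a symbol were kept, and 32919 of the 37991 genes had a symbol. Reads outside genes came to 5.18% to 8.07%, and ambiguous reads to 2.81% to 2.93%. Symbols, exon lengths and overlaps came from GENCODE M21 and promoters from RefSeq, both of a later build, matched by Ensembl identifier or symbol.

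CPM were computed from total gene counts. The quasi-likelihood test of edgeR 4.0.16 (R 4.3.3; robust, TMM, filterByExpr by group) was applied to the counts, with 1 mean per group over all 6 libraries, 5 contrasts and Benjamini-Hochberg adjustment over the 16472 genes kept; DESeq2 1.42.0 was an alternative. The first fit had no batch term and the second had the term for the mark in the file names; the script was tested on simulated data. Calls are described from the second because the first made none. The labels do not state that the mark is a batch or that replicate numbers pair libraries. Counting intervals (95%) cover counting error only. Each SE given for edgeR is the size of the log2 change divided by the square root of its F statistic. It is thus derived from the test and is not a separate output of the fit.

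The 10 genes and all lists were chosen with earlier results of these data known. From each list, up to 4 genes per contrast with the smallest p among those that passed, at a mean of at least 1 CPM, could be named. Genes named for having few counts were named after their values were seen. So were the myogenic, fibroblast and smooth muscle markers, Lpl, Col2a1, Id1, Id2, Id3 and Hey1.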

Additional observations from a re-analysis of the deposited data

Results flagged for a closer look

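The effect of the knockdown differed between MT and MB, by the test of the difference itself (edgeR with the batch term, Benjamini-Hochberg adjustment), for 4 of the 9 tested genes, against 10.5% of all genes tested. DESeq2 with the batch term called 2 of the 4, Spp1 and Postn, and gave adjusted p = 0.0856 for Tnmd and 0.108 for Runx2. Each value is the MT log2 change minus the MB log2 change, and each MT arm was a single library. Tnmd differed by 3.67 (adjusted p = 0.0216), with a log2 change of 5.16 in MT and 1.49 in MB. Spp1 differed by 1.11 (adjusted p = 0.00491), with 0.11 in MT and -1.0 in MB. Runx2 differed by 0.81 (adjusted p = 0.0118), with 0.65 in MT and -0.17 in MB. Postn differed by -1.78 (adjusted p = 0.000975), with -0.42 in MT and 1.36 in MB. Without the batch term the differences were 3.54, 1.10, 0.82 and -1.87 in the same order, and none had an adjusted p under 0.05. Groups of 4 to 10 libraries, which a check for single outlying libraries needs, were not present.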

How the results depend on the processing

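Without the batch term, 0 of the 10 genes were called in any comparison by edgeR as first specified (1, 1, 3, 1 and 2 at an unadjusted p under 0.05, in the order that follows); with the replicate block, here the batch term, 632, 3344, 7398, 5446 and 1722 genes were called for knockdown in MB, knockdown in MT, differentiation of control cells, differentiation of knockdown cells and the difference of the knockdown effects, 4, 4, 6, 7 and 4 of them among the 10. Listed in that order, DESeq2 without the term called 50, 368, 2370, 843 and 168 genes, of which 3 of the 10 in control and 1 in knockdown differentiation. Without the term, control differentiation had 78 genes with DESeq2 size factors, 582 (1 of the 10) with no filter and 0 to 141 with 1 MB library left out, and knockdown differentiation had 2 with no filter. The following settings with the term were chosen after seeing the data. DESeq2 size factors called 539, 3211, 7208, 5337 and 1605 genes (4, 4, 6, 6 and 4 of the 10), total gene counts 509, 3715, 7384, 5241 and 1764 (4, 4, 6, 5 and 4), no filter 1046, 3740, 7534, 5856 and 2245 (5, 4, 6, 7 and 5), and the DESeq2 test 331, 1542, 4279, 2918 and 961 (2, 2, 4, 5 and 2). Total gene counts turned 1498 higher and 1846 lower calls in MT into 2330 and 1385. DESeq2 with the term did not call Alpl and Scx in MB, Sox9 and Runx2 in MT, Alpl and Sp7 in control differentiation, Sox9 and Sp7 in knockdown differentiation, or Tnmd and Runx2 for the difference. Spp1 and Sp7 in knockdown differentiation were not called with total gene counts, nor Sp7 with DESeq2 size factors.

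Some log2 changes turned in direction. Mkx in MT was -0.05, and 0.08 with total gene counts, with or without the term; in knockdown differentiation it was -0.08, and 0.00 with total gene counts. In control differentiation Tnmd was -0.35 without the term and 2.44 with it (2.47, 2.40, 2.41 and 2.05 with DESeq2 size factors, total gene counts, no filter and the DESeq2 test), and Mkx 0.05 and -0.39 (-0.35, -0.41, -0.40 and -0.35). Leaving out 1 MB library at a time, without the term, gave in MB Alpl -4.17 to 10.34, Sp7 -2.22 to 0.31, Scx -1.31 to 0.36, Tnmd -2.25 to 3.12 and Mkx -0.51 to 0.78. In control differentiation it gave Sox9 -0.28 to 0.21, Alpl -2.49 to 6.76, Tnmd -1.08 to 1.17 and Mkx -0.41 to 0.75. In knockdown differentiation it gave Alpl -4.98 to 2.25, Sp7 -2.12 to 0.15, Scx -0.27 to 1.13 and Mkx -0.50 to 0.51. For the difference of the knockdown effects it gave Alpl -10.75 to 3.76, Sp7 -0.66 to 1.87, Scx -1.11 to 0.57 and Mkx -0.83 to 0.46. The cause was not tested. With the term, leaving out an MB library leaves no residual degrees of freedom, so this was not run. Alpl, Sp7 and Tnmd have few counts in most libraries, and Acan could not be tested at this depth.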
